A study of Mus musculus with 38 samples.

Results

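The Ikaros family genes Ikzf1, Ikzf2 and Ikzf3 were examined through the ChIP-seq peaks that surround them in a Cas9-expressing mouse cell line of lymphoid progenitors (LP). A peak was counted for a gene when its centre lay between 100 kb before and 100 kb after the gene body in mm10, whichever list it came from. By this rule 232 of the 359759 peaks in 17 lists were members, of which 122 belonged to Ikzf1, 101 to Ikzf3 and 9 to Ikzf2. They merged into 59 sites of overlapping peaks, 28 around Ikzf1, 26 around Ikzf3 and 5 around Ikzf2.

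All groups came from this line, named Cas9-LP. It had been made from fetal liver progenitors, and the donor mice were Ebf1-deficient and carried Rosa26-Cas9, so every group lacked the B-lineage factor Ebf1 and expressed Cas9. LP cells were kept on OP9 stroma, whereas Phase 1 and Phase 2 cells had grown on OP9-DLL4, a stroma that carries the Notch ligand DLL4. RUNX1, CTCF, Med12 and p300 were each profiled in LP and Phase 1, and Notch1-IC (the intracellular domain of Notch1) in LP, Phase 1 and Phase 2. The remaining lists came from cells that had received retroviral guide RNAs: RUNX1 in LP cells with sgCont or sgCTCF, RUNX1 in Phase 1 cells with sgCont or sgMed12, and Med12 in Phase 1 cells with sgCont or sgCbfb. The study states that ChIP-seq of the Cbfb-, Ctcf- and Med12-deficient cells was done on few cells and was noisier. Each list combined 2 replicates, so no value had an error between cultures and no test of a difference was possible. The files give peak positions and no expression, so the LP label could not be checked against markers here, nor could a targeted gene be checked. The study presents immunoblots for Cbfb, CTCF and Med12 after guide transduction of LP cells as evidence of depletion. The score of a peak is the authors' normalized peak score, whose scale between lists is not stated. It is therefore given with the place of the peak in its own list, counted in percent from the highest score.

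Ikaros (Ikzf1), Helios (Ikzf2) and Aiolos (Ikzf3) are zinc finger proteins that bind DNA and work with chromatin-remodelling complexes such as NuRD in lymphoid cells. Ikaros is needed for early lymphoid development and limits the activity of Notch target genes in T cell progenitors, Helios is expressed in subsets of T cells including regulatory T cells, and Aiolos is best known from B cells and developing thymocytes. RUNX1 binds DNA with its partner Cbfb, CTCF is an architectural protein, Med12 belongs to the kinase module of Mediator, and p300 is an acetyltransferase and coactivator. Notch1-IC reaches DNA through RBPJ, whose string GTGGGAA contains the Ikaros core string TGGGAA.

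The 3 genes differed sharply in how many peaks they held. Around Ikzf1 the LP and Phase 1 lists held 13 and 15 RUNX1 peaks, 10 and 14 Med12 peaks, 13 and 17 p300 peaks, and 9 and 11 CTCF peaks. Around Ikzf3 the numbers were 9 and 9 for RUNX1, 9 and 10 for Med12, 10 and 15 for p300, and 14 and 13 for CTCF. Around Ikzf2 no RUNX1 peak was listed in either stage, and the window held 0 and 2 Med12 peaks, 0 and 3 p300 peaks, and 2 and 2 CTCF peaks. The median over the windows of 21938 protein-coding genes drawn by the same rule was 5 and 6 RUNX1 peaks, 5 and 6 Med12 peaks, 6 and 8 p300 peaks, and 8 and 8 CTCF peaks. The Ikzf1 window was therefore richer than the median in every one of these 8 lists, and the Ikzf2 window poorer in all 8 although it was the longest of the 3 (356 kb, beside 288 kb for Ikzf1 and 281 kb for Ikzf3). Per 100 kb of window, the RUNX1 count of Ikzf1 was 4.52 (LP) and 5.21 (Phase 1) and that of Ikzf3 was 3.20 at both stages, beside medians of 2.20 and 2.61. CTCF peaks of Ikzf1 were close to the medians on this scale, at 3.13 and 3.82 beside 3.34 and 3.31. A window without RUNX1 in both stages was not rare, since 16.4% of gene windows had none.

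The place of the peaks relative to the gene also separated Ikzf1 from Ikzf3. Within the Ikzf1 gene body (chr11:11685003-11772926, plus strand, 87.9 kb) lay 4 of 13 RUNX1 peaks in LP and 8 of 15 in Phase 1, together with 7 of 13 and 10 of 17 p300 peaks. Within the Ikzf3 gene body (chr11:98464902-98546031, minus strand, 81.1 kb) lay none of the 9 RUNX1 peaks of either stage, 0 of 9 and 1 of 10 Med12 peaks, and 0 of 10 and 1 of 15 p300 peaks. In the Ikzf3 window, 4 RUNX1 peaks in each stage instead lay within 1 kb of the start of a coding neighbour. The Ikzf2 gene body (chr1:69531214-69687245, minus strand, 156 kb) held no peak of any list. Distances are given from the annotated 5′ end of the gene, with positive values in the direction of transcription.

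**Figure D1:**
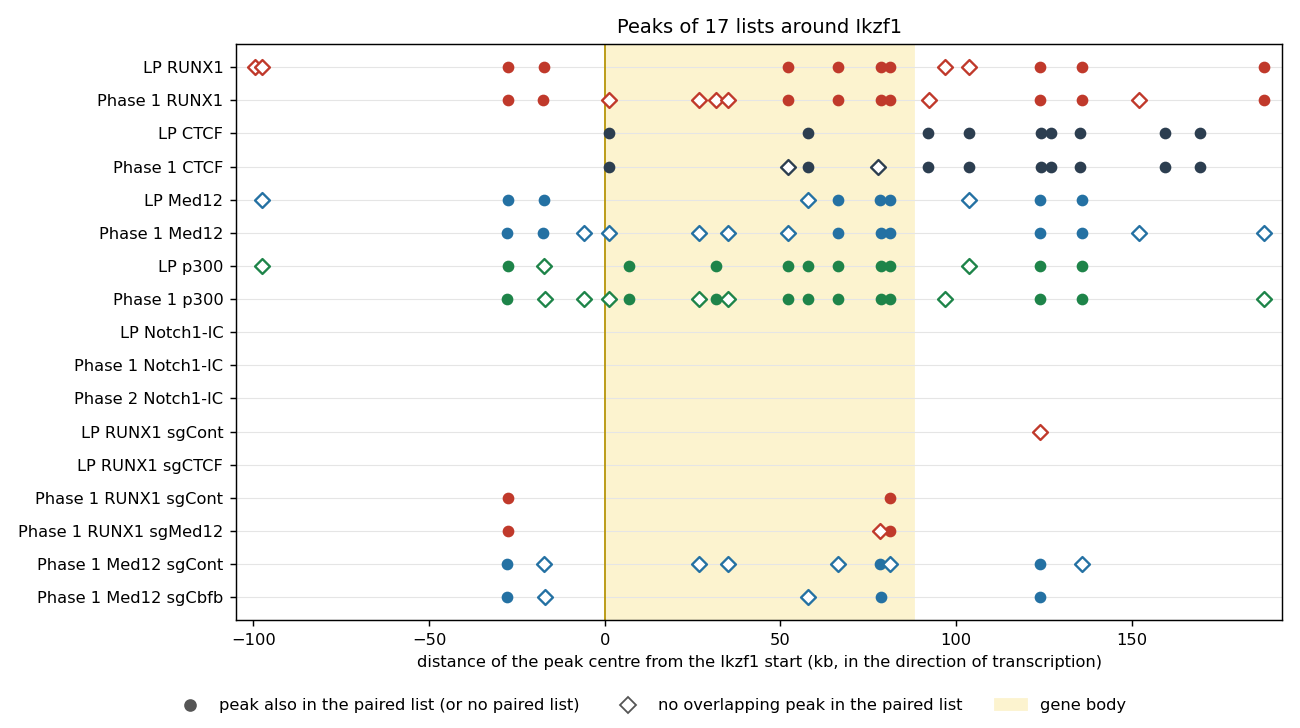
Peaks of the 17 lists (rows) around Ikzf1, by the distance of the peak centre from the gene start in kb. Filled circles are peaks with an overlapping peak in the paired list (the same factor in the other stage, or the other guide), or peaks of a list that has no pair. Open diamonds are peaks without one. The shaded band is the gene body, and 8 Phase 1 RUNX1 peaks lie in it beside 4 in LP.

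The best-placed RUNX1, Med12 and p300 peaks of Ikzf1 lay upstream. The site at -27.7 kb (chr11:11657104-11657539, in an intron of the noncoding gene Gm11999 by GENCODE and intergenic by the deposited annotation) was held by 10 lists. Its RUNX1 score was 189 in LP (top 6.34% of its list) and 248.5 in Phase 1 (top 3.35%). Its Med12 score was 162.3 in LP (top 9.22%) and 208.5 in Phase 1 (top 2.22%), and its p300 score was 393 (top 1.97%) and 454.5 (top 1.16%). It was the best-placed Ikzf1 peak in all 6 of these lists, and no CTCF peak lay at it. A second upstream site at -17.4 kb held RUNX1, Med12 and p300 in both stages at lower scores, with RUNX1 at 64.5 in LP and 53.4 in Phase 1. At that site the p300 peaks of LP (122.4) and Phase 1 (82.4) were adjacent without overlapping, so each counted as specific to its stage.

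Inside the gene, 3 intronic sites had RUNX1, Med12 and p300 in both stages. At +81.3 kb in intron 6 the RUNX1 score was 165.3 in LP (top 8.50%) and 190.9 in Phase 1 (top 6.55%). At +78.5 kb in the same intron it was 71.6 in LP (top 33.7%) and 124.6 in Phase 1 (top 15.1%), with Med12 at 80.4 (top 30.2%) and 113.8 (top 11.5%) and p300 at 112.6 (top 24.5%) and 190.1 (top 8.17%). The +78.5 kb site thus stood higher in all 3 Phase 1 lists than in the LP lists. At +66.4 kb in intron 4 the RUNX1 peak went the other way, with 70.8 in LP (top 34.1%) and 54.3 in Phase 1 (top 41.8%).

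The sequences of the -27.7 kb, +78.5 kb and +81.3 kb sites are shown because they carry high-scored RUNX1, Med12 and p300 peaks of both stages. That of the +35.0 kb site, described next, is shown for its Phase 1-specific peaks. Each is 200 bases of mm10 around the centre of the best-placed peak, read 5′ to 3′ on the plus strand, which is also the strand of Ikzf1. Capitals mark matches on either strand to the strings TGTGGTT or TGCGGTT (RUNX), GTGGGAA (RBPJ), TGGGAA (Ikaros core), GAGGAAGT (PU.1), TGACTCA or TGAGTCA (AP-1) and the CTCF consensus of 12 letters.
Ikzf1 -27.7 kb (chr11:11657195-11657394): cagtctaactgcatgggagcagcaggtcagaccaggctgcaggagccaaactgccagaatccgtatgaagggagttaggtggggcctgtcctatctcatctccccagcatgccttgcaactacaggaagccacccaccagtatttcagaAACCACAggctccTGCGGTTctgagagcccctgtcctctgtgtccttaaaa
Ikzf1 +35.0 kb (chr11:11719871-11720070): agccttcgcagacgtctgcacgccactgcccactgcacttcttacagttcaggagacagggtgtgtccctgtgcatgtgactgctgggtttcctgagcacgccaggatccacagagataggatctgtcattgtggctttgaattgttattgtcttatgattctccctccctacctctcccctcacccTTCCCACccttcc
Ikzf1 +78.5 kb (chr11:11763448-11763647): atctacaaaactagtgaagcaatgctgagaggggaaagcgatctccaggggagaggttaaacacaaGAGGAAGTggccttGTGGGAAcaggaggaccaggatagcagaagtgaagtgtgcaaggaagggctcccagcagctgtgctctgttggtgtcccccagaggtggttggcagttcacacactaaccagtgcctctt
Ikzf1 +81.3 kb (chr11:11766232-11766431): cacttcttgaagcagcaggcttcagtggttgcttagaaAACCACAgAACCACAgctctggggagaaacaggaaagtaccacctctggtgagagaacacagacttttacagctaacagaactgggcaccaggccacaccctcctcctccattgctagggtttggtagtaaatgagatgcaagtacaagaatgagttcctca
The -27.7 kb and +81.3 kb sequences each held 2 RUNX strings, a pair set close together in both. The +78.5 kb sequence held a PU.1 string and an RBPJ string, the latter with the Ikaros core inside it, and no RUNX string. The +35.0 kb sequence held 1 RBPJ string near its right end. The -17.4 kb and +66.4 kb sites are not printed. No RUNX string lay under their peaks, and at +66.4 kb there was none of the strings. Over all Phase 1 RUNX1 peaks, 25.4% held a RUNX string in such a window, 5.29% an RBPJ string, 16.3% an Ikaros core and 8.63% a PU.1 string. A match describes letters only and is no evidence that a protein was bound there.

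Apart from the p300 peak at -17.4 kb, the highest-scored Phase 1-specific peaks of Ikzf1 lay between the start and intron 3. At the start itself, a site at +1.08 kb (chr11:11685869-11686302, in exon 1 and its 5′ UTR by the deposited annotation) held CTCF in both stages, at 91.1 in LP (top 39.7%) and 98.8 in Phase 1 (top 38.6%). RUNX1 (55.1, top 41.2%), Med12 (68.5, top 27.7%) and p300 (67.8, top 34.8%) were listed there in Phase 1 alone. In intron 3, RUNX1, Med12 and p300 peaks without an LP counterpart lay at +26.9 kb (RUNX1 17.8, Med12 58.3, p300 48.2) and at +35.0 kb (RUNX1 53.3, Med12 61.1, p300 156.9). The p300 peak at +35.0 kb stood in the top 11.4% of its list and was the highest-scored Phase 1-specific peak of the whole family. Between them, at +31.8 kb, p300 was listed in both stages (47.5 and 55.5) and RUNX1 in Phase 1 alone (30.8). The RUNX1 peak at +26.9 kb, by contrast, had a score near the minimum of 15 and stood in the top 91.1% of its list.

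The region before the Ikzf1 start is shown because the CTCF peaks and the Phase 1-specific Med12 peak at +1.08 kb reach into its end, while the p300 and RUNX1 peaks begin beyond it. It is the 250 bases before a RefSeq start of Ikzf1 (GRCm38, chr11:11685675-11685924, plus strand), with capitals as above.
Ikzf1 promoter: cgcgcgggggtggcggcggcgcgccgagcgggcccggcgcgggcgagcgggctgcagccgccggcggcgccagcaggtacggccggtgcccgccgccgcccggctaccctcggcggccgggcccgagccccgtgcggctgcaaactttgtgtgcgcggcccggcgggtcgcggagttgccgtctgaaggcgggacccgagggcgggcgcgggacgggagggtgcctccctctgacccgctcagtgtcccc
It held none of the strings and had 82.0% G and C, beside a median of 52.4% over 32851 RefSeq promoters of the same length. Among those promoters 5.59% held a RUNX string, 5.42% an RBPJ string and 2.44% a PU.1 string. Of the 3 genes, 1 had a promoter in this set.

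LP-specific RUNX1 peaks of Ikzf1 all lay outside the gene body. At -97.5 kb the LP lists held RUNX1 (34.2), Med12 (33.3) and p300 (46.8), and no Phase 1 list held a peak. At +104 kb, in an exon of a GENCODE transcript of Fignl1, the best-placed CTCF peak of the window (452 in LP, top 0.30%, and 516.8 in Phase 1, top 0.458%) coincided with LP-specific RUNX1 (30.6, top 68.7%), Med12 (35.3, top 63.8%) and p300 (45.3, top 56.4%). CTCF was thus listed there in both stages, while the other 3 factors were listed in LP alone. Of the 5 LP-specific RUNX1 peaks of the family this was the 1 that overlapped LP CTCF, beside 36.8% of all LP-specific RUNX1 peaks. The others at Ikzf1 were weak peaks at -99.7 kb (17) and +96.9 kb (18.1). An LP-specific Med12 peak within the gene, at +57.9 kb (25.1), lay on a CTCF site of both stages (215.6 and 233.3). Phase 1-specific CTCF peaks were few and weak, at +52.1 kb (19.5) and +77.8 kb (27.4), both in introns.

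In all, RUNX1, Med12 and p300 were listed together at 7 Ikzf1 sites in both stages, at 2 in LP alone and at 5 in Phase 1 alone, where the other stage lacked at least 1 of the 3. Around Ikzf3 the corresponding numbers were 7, 2 and 1, and around Ikzf2 they were 0. For the family these were 14, 4 and 6 of 40 sites with any of the 3 factors. Over all chromosomes the shares of 62209 such sites were 34.3%, 8.07% and 16.0%, so the family lay near them. Sites with any of these factors in Phase 1 and with none in LP numbered 6 for Ikzf1, 3 for Ikzf2 and 5 for Ikzf3. Sites of the opposite kind numbered 3, 0 and 0. Together these were 14 and 3 of the 40 sites of the family with any of the 3 factors, beside 35.7% and 11.3% of 62209 such sites over all chromosomes. The family was thus close to the shares over all chromosomes in sites listed for Phase 1 alone.

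Whether these stage-specific peaks were more frequent than elsewhere was read against the whole lists. A peak is stage-specific here when no peak of the same factor in the other stage shared at least 1 bp with it. For RUNX1, 5 of 22 LP peaks of the family were LP-specific (16.8% over the whole list) and 7 of 24 Phase 1 peaks were Phase 1-specific (30.7% over the whole list). For Med12 the counts were 4 of 19 in LP (whole list 19.5%) and 11 of 26 in Phase 1 (whole list 38.2%). For p300 they were 3 of 23 in LP (whole list 20.7%) and 15 of 35 in Phase 1 (whole list 41.6%). For CTCF they were 2 of 25 in LP (whole list 9.55%) and 3 of 26 in Phase 1 (whole list 8.35%). These counts lie near the shares of the whole lists, which for RUNX1, Med12 and p300 also hold more Phase 1-specific than LP-specific peaks. For CTCF the whole lists hold more LP-specific peaks. With the same number of top-scored peaks taken from both stages, the family held 6 LP-specific and 7 Phase 1-specific Med12 peaks, 6 and 10 p300 peaks, and 5 and 5 RUNX1 peaks. Over the whole lists the stage-specific share was then the same in LP and Phase 1. It was 27.4% for Med12, 30.9% for p300 and 22.3% for RUNX1.

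Most of the stage-specific peaks belonged to Ikzf1, which also held the most peaks. Its window held 10 LP-specific and 20 Phase 1-specific peaks of RUNX1, Med12 and p300 among 36 and 46, whereas that of Ikzf3 held 2 and 8 among 28 and 34. The whole-list shares of these factors ran from 16.8% to 20.7% in LP and from 30.7% to 41.6% in Phase 1. A site can supply a peak of each factor, so these are not counts of separate sites. All 5 Ikzf2 peaks of Med12 and p300 were Phase 1-specific. Of the 7 Phase 1-specific RUNX1 peaks of the family, 5 overlapped Phase 1 Med12 and 5 overlapped Phase 1 p300, beside 75.0% and 79.6% of all Phase 1-specific RUNX1 peaks. A second Phase 1 Med12 list existed, from cells with sgCont. It held 2 of the 11 Phase 1-specific Med12 peaks of the family, those at +26.9 kb and +35.0 kb of Ikzf1, and 12 of the 15 Phase 1 Med12 peaks present in both stages. Over the whole list these shares were 9.71% and 67.4%.

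**Figure D2:**
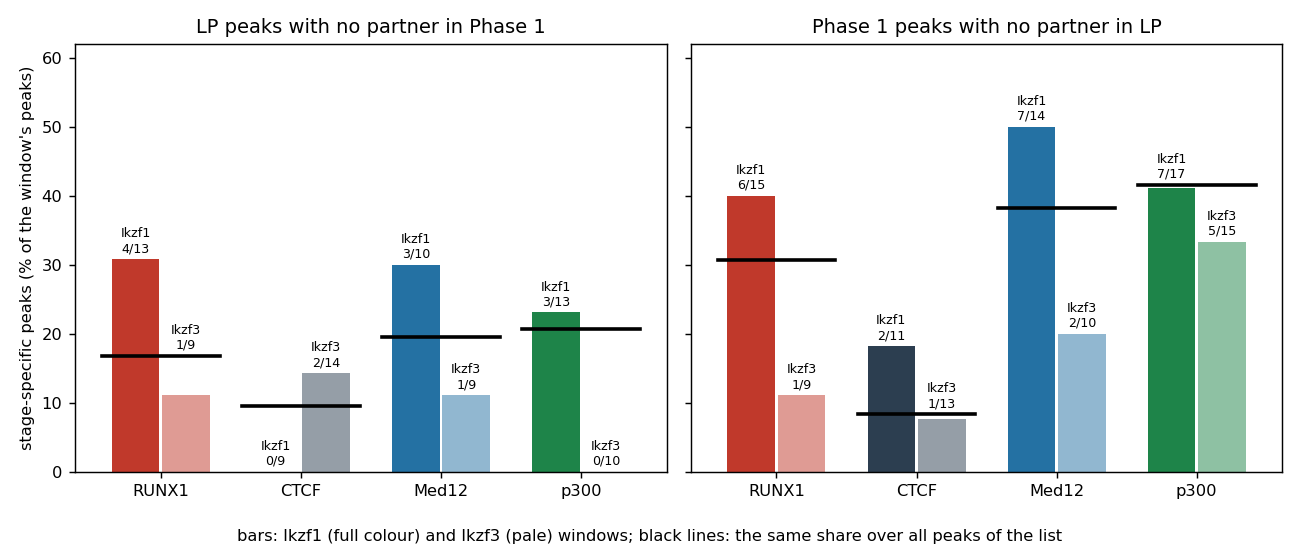
Stage-specific peaks as a percent of the peaks of each factor in the Ikzf1 (full colour) and Ikzf3 (pale) windows, for LP (left) and Phase 1 (right), with the counts above each bar. Black lines give the share over the whole list, for example 30.7% for Phase 1 RUNX1. Ikzf2, with no RUNX1 peak, is left out.

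Peaks present in both stages could be compared by their place in the 2 lists. Around Ikzf1, 9 of 10 shared p300 peaks stood higher in the Phase 1 list than in the LP list, with a median difference of 4.67 percentage points, beside 3.07 over all 28691 shared p300 peaks. For Med12, 5 of 7 stood higher in Phase 1 (median 7.0 points, 2.88 over all), and for RUNX1, 7 of 9 (1.95 points, 2.59 over all). A majority also stood higher in Phase 1 over all shared peaks. These were 18463 of 28691 for p300, 14240 of 24171 for Med12 and 16458 of 26610 for RUNX1. Around Ikzf3, 7 of 10 p300 peaks (median 3.06 points), 4 of 8 Med12 peaks (3.70) and 6 of 8 RUNX1 peaks (1.77) stood higher in Phase 1. The medians of these 3 factors thus had the sign of the whole lists, while the Ikzf3 Med12 peaks were evenly split. For CTCF the medians were -0.158 points for Ikzf1, 0.843 for Ikzf3 and 5.74 for the 2 shared peaks of Ikzf2, and -0.511 over all. The Phase 1 lists of RUNX1, Med12 and p300 were longer than the LP lists, and the part of length in these differences was not tested.

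**Figure D3:**
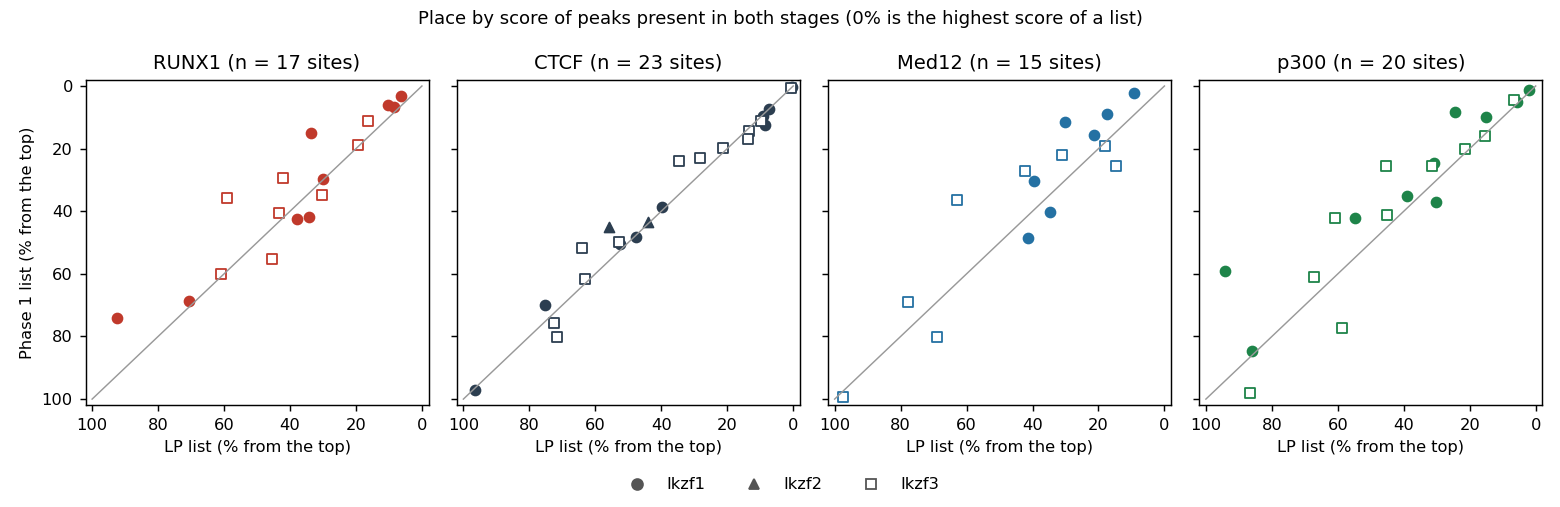
Place of each shared peak in the LP list (horizontal axis) and the Phase 1 list (vertical axis), in percent from the highest score, so that points above the grey diagonal stand higher in Phase 1. Filled circles are Ikzf1, triangles Ikzf2 and open squares Ikzf3. Of the Ikzf1 p300 points 9 of 10 lie above it, beside 18463 of 28691 over all shared p300 peaks. CTCF points lie on both sides, the farthest 12.1 points away.

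Guide RNAs against Ctcf and Med12 were used to ask whether RUNX1 occupancy depends on these partners. The RUNX1 lists from such cells were short (874 to 2094 peaks), and few of their peaks lay near the family. In LP cells the sgCont list held 1 member peak, at the Fignl1 start +124 kb from the Ikzf1 start (27.1, top 47.6% of its list), and the sgCTCF list held none. Over the whole sgCont list 40.9% of peaks had no counterpart with sgCTCF, and 34.1% of sgCTCF peaks had none with sgCont. In Phase 1 cells the sgCont list held the -27.7 kb site (24.9, top 49.0%) and the +81.3 kb site (21.9, top 61.6%) of Ikzf1. Both were also in the sgMed12 list, at 19.9 (top 58.4%) and 20.4 (top 54.7%), with a further peak at +78.5 kb (15.2, top 96.8%) that sgCont lacked. Over the whole lists 29.0% of sgCont peaks were missing with sgMed12, and 47.4% of sgMed12 peaks were missing with sgCont. No RUNX1 peak from these lists lay near Ikzf2 or Ikzf3.

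For Med12 in Phase 1 cells, the guides against Cbfb gave different outcomes at Ikzf1 and Ikzf3. Around Ikzf1 the sgCont list held 9 Med12 peaks, of which 3 had an overlapping peak with sgCbfb and 6 had none. Around Ikzf3 all 6 sgCont peaks had one, and sgCbfb added none. Over the whole lists 32.2% of sgCont peaks had no counterpart with sgCbfb, and 28.6% of sgCbfb peaks had none with sgCont. The 2 genes were not compared by a test.

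The Ikzf1 peaks listed with sgCont and not with sgCbfb lay at +81.3 kb (35.5, top 49.9%), +26.9 kb (28.5, top 63.2%), -17.4 kb (21.6, top 78.6%), +136 kb (19.8), +66.3 kb (19.1, in the +66.4 kb site) and +35.0 kb (19.0). Of these 6, 5 had a score below 30, and each overlapped a Phase 1 RUNX1 peak. The 3 that remained were the -27.7 kb site, the +78.5 kb site and the Fignl1 start. At -27.7 kb the peak stood in the top 22.3% with sgCont (62.7) and in the top 71.1% with sgCbfb (24.7). At +78.5 kb it stood in the top 45.5% (38.6) and the top 82.7% (20.2). At the Fignl1 start, in contrast, its place was nearly the same, in the top 21.1% (64.5) and the top 24.3% (64.1). The sgCbfb list had 2 further Ikzf1 peaks, at +57.9 kb (18.2), a CTCF site, and at -17.1 kb (20.8), whose centre was 289 bp from that of the missing -17.4 kb peak.

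Around Ikzf3 the Med12 peaks with sgCont and sgCbfb lay at the starts of Ormdl3, Zpbp2, Mien1 and Pgap3, at +88.1 kb and at +152 kb. The Mien1 start stood in the top 18.4% with sgCont (69.5) and in the top 13.4% with sgCbfb (86.9), and the Ormdl3 start in the top 23.1% (61.5) and 16.8% (78.2). The 4 peaks at coding starts and the +152 kb peak all stood higher with sgCbfb, and the +88.1 kb peak stood lower, in the top 51.2% (34.8) and 68.9% (25.7). Such shifts were not counted over all peaks present with both guides, so they cannot be called particular to Ikzf3 or Ikzf1. All 6 overlapped Phase 1 RUNX1, as did all 9 around Ikzf1 and 17987 of the 19053 peaks of the whole sgCont list. Over that list 32.0% of peaks with Phase 1 RUNX1 and 36.7% of those without it were missing with sgCbfb. Over the whole sgCont list, 7.67% of promoter-annotated peaks and 50.2% of the others were missing with sgCbfb, and 53.7% of peaks with a score below 30 beside 17.9% of the rest. By the same deposited annotation, 1 of the 9 Ikzf1 peaks and 2 of the 6 Ikzf3 peaks were promoter-annotated. Counted instead within 1 kb of a coding start, these were 1 of 9 and 4 of 6. Position and score moved with the outcome, and their part in it was not tested.

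**Figure D4:**
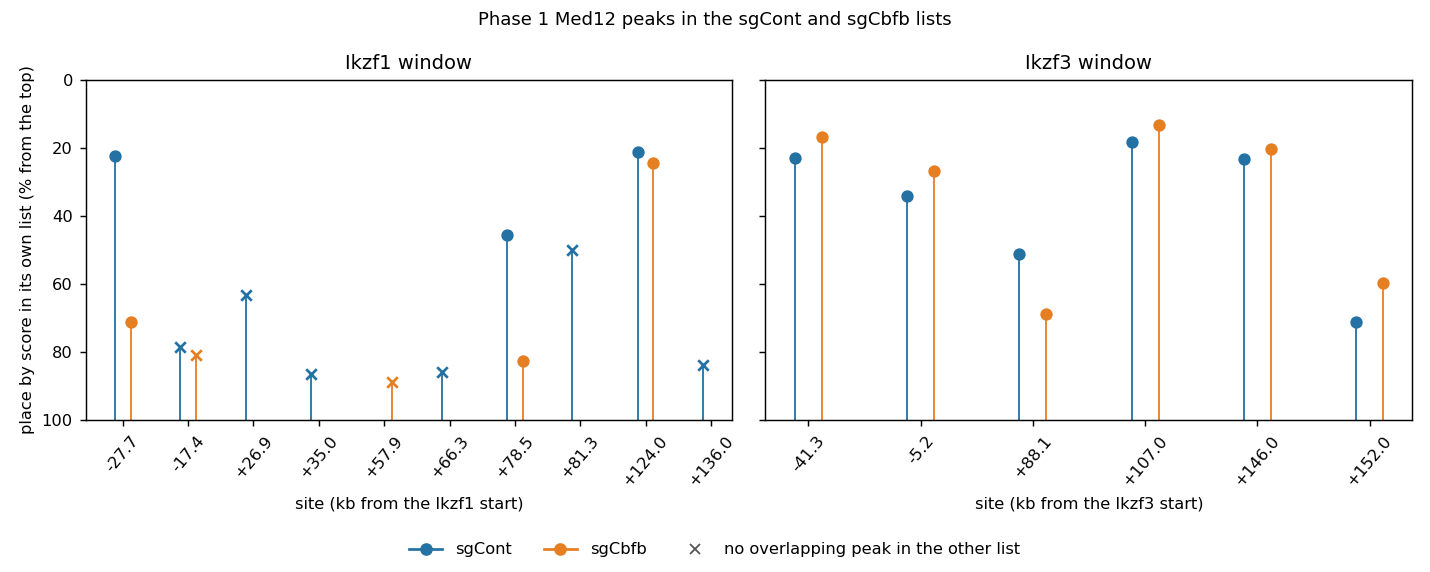
Place by score of Phase 1 Med12 peaks in the sgCont list (blue) and the sgCbfb list (orange), in percent from the top of each list, at sites of the Ikzf1 window (left) and the Ikzf3 window (right) in order of distance from the gene start. Crosses are peaks with no overlapping peak in the other list, 6 of 9 sgCont peaks around Ikzf1 and none of 6 around Ikzf3.

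Around Ikzf3, the best-placed peaks of RUNX1, CTCF, Med12 and p300 lay at or in neighbouring genes rather than in Ikzf3 itself. Which gene they act on was not tested. The start of Mien1 at +107 kb was 1 of 2 sites held by 10 lists, with CTCF in the top 0.762% in LP (364) and the top 0.656% in Phase 1 (478.6), and RUNX1 at 119.8 (top 16.3%) and 146.9 (top 11.3%). The best-placed LP Med12 peak lay at the start of Pgap3 at +146 kb (129.3, top 14.7%), and the best-placed p300 peak at +152 kb, in an intron of the same gene, which encodes a GPI-anchor remodelling enzyme (232.9 in LP, top 6.70%, and 259 in Phase 1, top 4.43%). At the Zpbp2 start, -5.15 kb from the Ikzf3 start, RUNX1 scored 55.7 in LP and 55.8 in Phase 1. Med12 was listed there in LP (48.8) and not in the unmodified Phase 1 list, yet both Phase 1 guide-RNA lists held it (48.2 with sgCont and 60.1 with sgCbfb). The LP-specific class of that peak thus rested on 1 of 3 Phase 1 Med12 lists.

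Downstream of Ikzf3, between it and the neighbour Grb7, lay a pair of sites that were not at a coding start. At +88.2 kb, on a CpG-annotated stretch, 10 lists held a peak, and RUNX1 stood in the top 59.1% in LP (37.9) and the top 35.8% in Phase 1 (63.9). Med12 (36.2 and 54.9) and p300 (61.9 and 89.6) there went from the top 62.8% to the top 36.4% and from the top 45.3% to the top 25.5%. At +86.7 kb p300 was listed in both stages (40.1 and 55.4), and RUNX1 (45.1, top 49.1%) and Med12 (24.0) in Phase 1 alone. That was the only Phase 1-specific RUNX1 peak around Ikzf3, and its window held a RUNX string. The only LP-specific RUNX1 peak lay at -49.6 kb and was weak (18.5, top 90.9%).

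The Ikzf3 gene body held 2 sites, whose sequences are shown because they were the only ones within the gene. At +36.5 kb, in intron 3, p300 (42.2, top 52.6%) and Med12 (22.2, top 78.9%) were listed in Phase 1 alone, without RUNX1. At +5.51 kb, in intron 1, CTCF was listed in both stages (43.9, top 63.1%, and 48.1, top 61.5%) on a B3A repeat of the SINE class. Both are read on the plus strand, opposite to Ikzf3, with capitals as above.
Ikzf3 +36.5 kb (chr11:98509473-98509672): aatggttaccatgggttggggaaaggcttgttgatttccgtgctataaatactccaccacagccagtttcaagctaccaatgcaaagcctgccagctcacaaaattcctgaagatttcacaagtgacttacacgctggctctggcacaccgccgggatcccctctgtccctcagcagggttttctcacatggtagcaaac
Ikzf3 +5.51 kb (chr11:98540421-98540620): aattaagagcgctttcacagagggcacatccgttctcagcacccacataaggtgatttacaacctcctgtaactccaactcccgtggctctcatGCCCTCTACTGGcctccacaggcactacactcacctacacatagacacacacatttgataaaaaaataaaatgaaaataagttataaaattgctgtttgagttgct
The +36.5 kb sequence held none of the strings, and the +5.51 kb sequence held the CTCF consensus on the minus strand. On either strand, 16.6% of CTCF peaks in each stage held that consensus. Sites with CTCF and none of RUNX1, Med12 and p300 numbered 11 around Ikzf3, 6 around Ikzf1 and 2 around Ikzf2. Their share over all chromosomes was not counted. The Ikzf3 window held 4 further sites with CTCF and at least 1 of these factors, and 11 sites without CTCF. Stage-specific CTCF peaks there were LP-specific at +90.4 kb (48.4) and +179 kb (21.7) and Phase 1-specific at -3.53 kb (23.9). The Phase 1-specific p300 peaks next in score to +36.5 kb lay in an intron of Ormdl3, a regulator of sphingolipid synthesis, at -40.2 kb (33.9, top 61.6%), and in an intron of Erbb2, a receptor tyrosine kinase gene, at +132 kb (24.8, top 75.9%).

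Around Ikzf2 each of the 5 sites was of modest score. CTCF was listed in both stages at -1.98 kb (54.8, top 55.7%, and 81.1, top 45.0%) and at -98.1 kb (79.7, top 44.1%, and 85.4, top 43.3%). Beyond the 3′ end of the gene, Phase 1 p300 and Med12 were listed together at +173 kb (44.8, top 50.2%, and 25.5, top 71.7%) and at +226 kb (34.2, top 61.2%, and 18.5, top 88.8%). At the start of the gene, Phase 1 p300 alone was listed (chr1:69687223-69687561, 30.3, top 66.5%). That sequence, centred 0.147 kb upstream of the annotated start, is shown as the sole coactivator peak at an Ikzf2 start, on the plus strand, opposite to Ikzf2.
Ikzf2 start (chr1:69687292-69687491): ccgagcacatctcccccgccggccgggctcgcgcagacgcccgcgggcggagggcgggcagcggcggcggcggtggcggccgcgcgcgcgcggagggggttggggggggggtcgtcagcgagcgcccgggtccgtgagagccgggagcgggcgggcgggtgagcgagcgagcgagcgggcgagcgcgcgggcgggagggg
It held none of the strings and had 85.0% G and C. The deposited annotation marks a G-rich low-complexity stretch there. No guide-RNA list had a peak near Ikzf2.

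**Figure D5:**
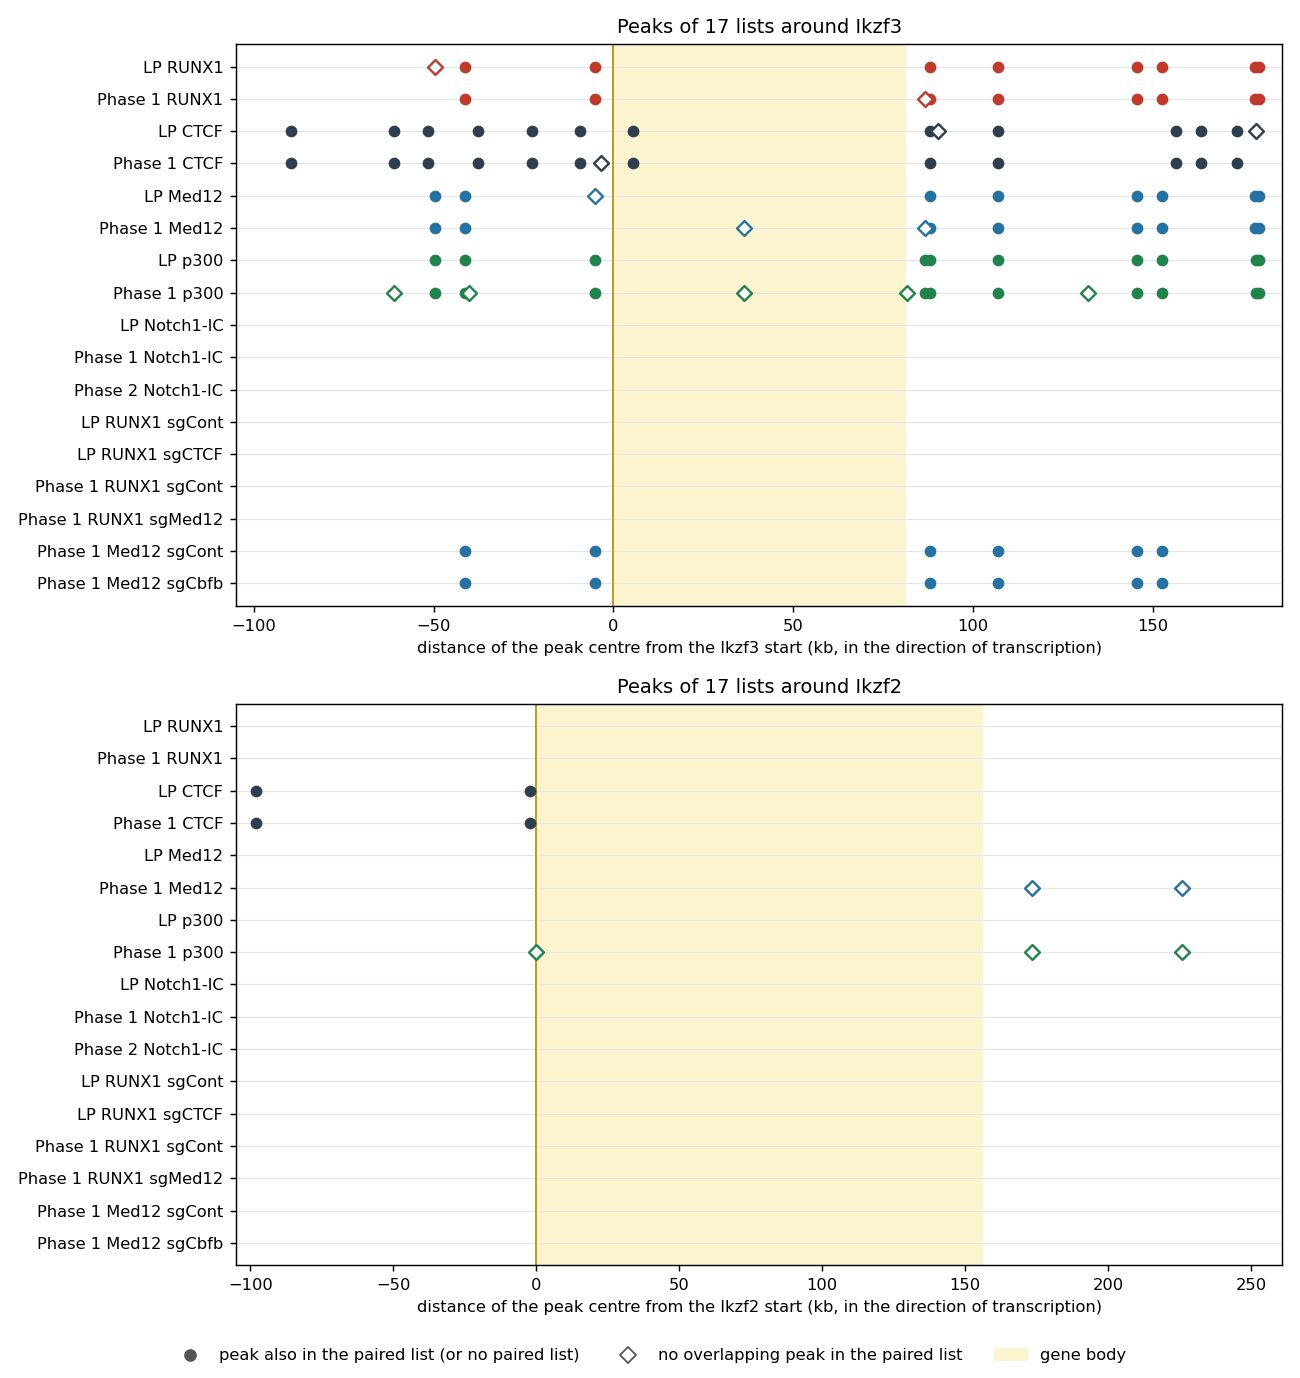
Peaks of the 17 lists around Ikzf3 (top) and Ikzf2 (bottom), drawn as for Ikzf1, by the distance of the peak centre from the gene start in kb. The Ikzf3 gene body (shaded) holds 2 sites, and that of Ikzf2 none.

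Notch1-IC was not listed around any of the 3 genes, in LP, Phase 1 or Phase 2. These lists were short, with 1585, 152 and 352 peaks, and 78.2% of gene windows held none of them. The LP list came from cells on stroma without the ligand. Of its peaks 4.42% held an RBPJ string, beside 36.2% in Phase 1 and 26.5% in Phase 2, and 4.23% of LP RUNX1 peaks. The nearest Notch1-IC peak was an LP peak 121 kb upstream of Ikzf1 (chr11:11564319-11564525, 19.5, top 55.9% of its list). For Ikzf3 the nearest lay 464 kb away, in Phase 2, and for Ikzf2 2550 kb away, in LP. The study describes larger sets of reproducible Notch1-IC peaks for Phase 1 and Phase 2 than the lists used here. Absence from lists of this length does not show that Notch1-IC was not bound. The RBPJ strings at the Phase 1-specific +26.9 kb and +35.0 kb sites of Ikzf1 were not accompanied by a listed Notch1-IC peak. At +26.9 kb the string lay in the windows of the weak RUNX1 peak and the sgCont Med12 peak. The windows of the Phase 1 Med12 and p300 peaks there lacked it. RBPJ strings also lay at Ikzf1 sites that were not Phase 1-specific, among them +78.5 kb.

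The 59 sites were searched under their LP and Phase 1 peaks of RUNX1, CTCF, Med12 and p300 from cells without guides. A RUNX string lay under at least 1 peak at 15 sites (9 of Ikzf1 and 6 of Ikzf3). An RBPJ string did so at 6, an Ikaros core at 16, a PU.1 string at 5, the CTCF consensus at 6 and an AP-1 string at 1. No Ikzf2 site held any of these strings. A site with several peaks has several windows to match, and the share over all sites was not counted. Among the 24 Phase 1 RUNX1 peaks, 7 held a RUNX string (25.4% over the list), 3 an RBPJ string (5.29%) and 6 an Ikaros core (16.3%), the RBPJ matches being counted again as cores. Among the 7 Phase 1-specific RUNX1 peaks, 3 held a RUNX string (29.8% of all such peaks) and 2 an RBPJ string (7.06%), and among the 5 LP-specific ones 1 (13.5%) and 0 (3.29%). An AP-1 string was under none of the 35 Phase 1 p300 peaks, beside 14.5% over the list. These counts are too small to set the family apart from the lists.

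The other Ikaros family genes were counted by the same rule. Ikzf4 (Eos) had 15 RUNX1 peaks in each stage and Ikzf5 (Pegasus) had 4 in LP and 5 in Phase 1, with 1 Phase 1-specific RUNX1 peak each. Neither had a Notch1-IC peak in LP or Phase 1. Ikzf2 was thus the single gene of the 5 without RUNX1. Of 13 genes for NuRD and SWI/SNF subunits, with which Ikaros proteins associate, all had RUNX1 in both stages (1 to 20 peaks in LP and 1 to 24 in Phase 1, median 15 in each). Phase 1-specific RUNX1 peaks outnumbered LP-specific ones at 8 of the 13 and the reverse held at 2. For Med12 these counts were 8 and 1, for p300 9 and 3, and for CTCF 4 and 7. The whole lists also held more Phase 1-specific than LP-specific peaks of RUNX1 (11789 and 5385), Med12 (14961 and 5849) and p300 (20425 and 7491). For CTCF they held 3738 and 4333. The same comparison over all gene windows was not made. The windows of Hdac1 and Rbbp4 overlap, so the 13 windows are not separate regions.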

How the data were processed

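ChIP-seq peak lists of 17 groups were used, each from 2 replicates. The other 2 groups, of 2 input samples each, have no list of their own. Per the labels and the study's methods, cells were fixed with disuccinimidyl glutarate and formaldehyde, reads were aligned to mm10 with Bowtie 1.1.1, and peaks were called with HOMER in factor style against a matched control. The authors then kept peaks reproducible between replicates by IDR (irreproducible discovery rate). Each deposited score is their normalized peak score, and no list held a score under 15. Read numbers per sample were not used, so depth is unknown, and a short list can reflect low depth as well as few bound sites. Combining replicates loses their spread.

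Members, lists and strings were chosen with earlier results of these data known. Gene positions came from GENCODE M21 and sequences from GRCm38.p6 and RefSeq. Peaks were assigned by their centre, called overlapping from 1 bp, merged into sites, and ranked by score within a list (Python 3.11.15, numpy 2.4.6, pandas 2.3.3, matplotlib 3.10.9). Overlap and merging steps were tested on simulated peaks. Strings were searched in 200 bp around the peak centre on both strands, with the share over all peaks of a list beside them. No statistical test was run, since replicates were combined. Single sites were named by rule: those at a gene's own starts, the best-placed peak of each list, the 3 highest-scored stage-specific peaks of each factor, the 3 sites in most lists, peaks of the RUNX1 guide-RNA lists, and the 3 highest-scored Med12 peaks present with 1 guide alone. A few further sites were named where a count was spelled out, after their values were seen. Other window sizes, overlaps and score minimums were tried.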

Additional observations from a re-analysis of the deposited data

How the results depend on the processing

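No paired analysis was possible because each list combines both replicates, and for the same reason no replicate could be left out. Of 102 summary counts under an alternative, 73 stayed within 1.5 times the value reported. A window of 50 kb gave 5 peaks around Ikzf2 and 58 around Ikzf3, with 3 LP-specific RUNX1 and 1 LP-specific CTCF peaks. A window of 200 kb gave 237, 15 and 229 peaks around Ikzf1, Ikzf2 and Ikzf3, and 1 Notch1-IC peak at Ikzf1, from the LP list. It also gave 12 and 14 LP-specific and Phase 1-specific RUNX1 peaks, 12 and 18 for Med12, 10 and 23 for p300, and 5 Phase 1-specific CTCF peaks. The gene bodies alone held 56, 0 and 4 peaks. With a minimum score of 30 there remained 2 and 4 stage-specific RUNX1 peaks, 1 and 0 CTCF peaks, 3 Phase 1-specific Med12 and 9 Phase 1-specific p300 peaks. At that minimum 1 sgCont Med12 peak at Ikzf1 was missing with sgCbfb and 0 were added, so the 6 missing peaks were mostly weak ones. With lists of equal length 7 Phase 1-specific Med12 and 6 LP-specific p300 peaks were found. With centres at most 500 bp apart 1 sgCbfb peak was added at Ikzf1. Phase 1-specific p300 peaks outnumbered LP-specific ones in 8 of 8 settings, and RUNX1, Med12 and CTCF peaks in 7 of 8 each. The exceptions were equal-length lists for RUNX1 and the minimum score of 30 for Med12 and CTCF. The whole lists of RUNX1, Med12 and p300 leaned the same way. At the minimum score of 30 their stage-specific shares in LP and Phase 1 were 7.09% and 14.3% (RUNX1), 9.99% and 21.2% (Med12), and 10.8% and 28.2% (p300). For CTCF the family's main counts were 2 in LP and 3 in Phase 1, while the whole-list shares were 9.55% and 8.35%. Among 396 counts of single genes, lists or strings, 124 moved by more than 1.5 times, 37 up and 87 down.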
